A study of Mus musculus with 12 samples.

Results

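The *ptges*-KO and *ptgs2*-KO lines of a murine BrafV600E melanoma cell line were compared by RNA-seq, that is, loss of microsomal prostaglandin E2 synthase 1 (mPGES-1) against loss of cyclooxygenase 2 (COX-2), the enzyme upstream of it. The samples were the 3 labelled PTGES-KO and the 3 labelled PTGS2-KO, 6 of the 12 samples of the series, and the 11282 of 30705 gene names that averaged 1 RPKM or more in the whole series were tested. The study asked which roles of mPGES-1 differ from those of COX-2. The cells came from a C57BL/6 mouse with the alleles Braf+/LSL-V600E, Tyr::CreERT2+/o, and p16INK4a-/-, so that both lines and the 3 scramble control samples carry BrafV600E and lack p16INK4a. Each gene was knocked out by CRISPR/CAS9 with puromycin selection, subclones were isolated by limiting dilution, and the cells were grown in serum-containing medium without drug treatment. The paper names the sequenced RNA once as coming from subclones and once as independent samples, and the labels do not say whether the 3 samples of a line were separate subclones or cultures. The p-values therefore measure only the spread between these samples, and effects of a knockout cannot be told apart from properties of the clones that carry it. Values are RPKM, reads per kilobase of transcript scaled to the mapped reads of each sample, and the estimated depth was 12960000 to 16740000 reads in the 6 samples.

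COX-1 and COX-2 convert arachidonic acid, which phospholipases release from membranes, into the unstable prostaglandin H2. Terminal synthases then make the individual prostanoids from it, and mPGES-1, encoded by *ptges*, makes prostaglandin E2 (PGE2). Loss of COX-2 therefore reduces the substrate for all terminal synthases, whereas loss of mPGES-1 leaves prostaglandin H2 for the others. PGE2 acts on cell surface receptors, several of which signal through cyclic AMP.

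The target genes were measured first as a check of the labels. *Ptgs2* mRNA was 78.5, 84.6, and 76.1 RPKM in *ptgs2*-KO samples and 807, 715, and 740 RPKM in *ptges*-KO samples, a difference of 3.22 ± 0.10 (SE) on the log2(RPKM + 1) scale used for all differences below (limma, Benjamini-Hochberg adjusted p = 2.2e-10). *Ptges* mRNA was 69.2, 69.4, and 63.4 RPKM in *ptgs2*-KO samples and 41.0, 35.6, and 34.8 RPKM in *ptges*-KO samples, lower by a log2 difference of -0.84 ± 0.08 (adjusted p = 9.2e-06). Neither gene overlapped between the lines, and each was lowest in the line named for it, although *ptges* transcripts remained in *ptges*-KO cells at 37.1 ± 3.37 RPKM (SD, n = 3). The melanocytic identity of the line was not visible in its transcripts. Of 7 melanocytic markers (*mlana*, *pmel*, *dct*, *tyr*, *tyrp1*, *sox10*, and *mitf*), 4 were listed at 0 in each of the 6 samples, and the 7 together summed to 1.92 to 3.90 RPKM. Summed markers of T cells were at most 0.15 RPKM, those of macrophages and dendritic cells at most 1.69 RPKM, those of endothelium at most 0.29 RPKM, and those of epithelium at most 1.14 RPKM in these samples. Of 6 fibroblast markers 2 were listed at 0, and the sum was 9.56 to 13.1 RPKM.

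The lines differed in 1873 genes at an adjusted p under 0.05, 16.6% of those tested. In *ptges*-KO relative to *ptgs2*-KO cells 763 genes (6.76%) were higher and 1110 (9.84%) were lower. In 1830 of the 1873 genes the 3 and 3 samples did not overlap, a separation that a call largely entails and that adds no support to it. Most differences were small. The median absolute log2 difference of the called genes was 0.49, and 195 genes (1.73%) differed by at least 1, of which 83 were higher and 112 lower. The direction of the split depended on the scaling, since 40.7% of the calls were higher with the deposited values, 51.7% after scaling by the median ratio, and 46.6% after quantile normalization, where the median difference of all genes was -0.03, 0.02, and near 0. With the replicate number as a block within the 2 groups, 3827 genes passed (1564 higher and 2263 lower). Without *ptges*-KO replicate 2, *ptges*-KO replicate 3, or *ptgs2*-KO replicate 1 the counts fell to 1104, 1193, and 1209. A total of 938 genes, 414 higher and 524 lower, passed in the same direction in each of the 18 alternative fits that tested them, and the genes described in detail here are from these unless stated otherwise.

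**Figure D1:**
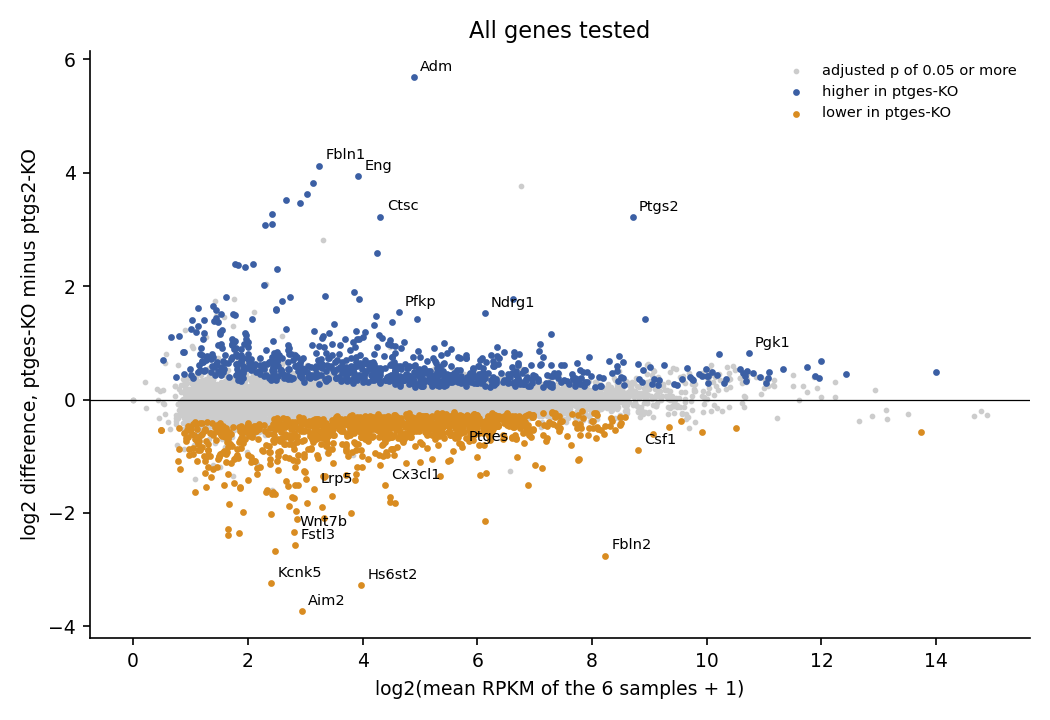
Difference of each of the 11282 genes tested, *ptges*-KO minus *ptgs2*-KO on log2(RPKM + 1), against its mean level in the 6 samples on a log2 axis. Blue and orange points passed an adjusted p of 0.05 as higher or lower in *ptges*-KO cells, and the 763 and 1110 such genes lie mostly within 1 log2 unit of 0, with *adm* at 5.68 and *aim2* at -3.73 as the outermost.

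Relative to scramble cells, 26.3% of the genes tested were called in *ptges*-KO cells and 11.1% in *ptgs2*-KO cells. Both comparisons use the same 3 scramble samples, and scramble values are given below only to show which of the 2 lines moved.

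Of 15 genes of prostanoid synthesis, breakdown, and transport, the targets included, 4 were higher (26.7%, against 6.76% of all genes) and 1 was lower (6.67%, against 9.84%). *Ptgs2* is among the 4 higher genes and *ptges* is the 1 lower gene, so these shares include differences that the knockouts themselves set. The median log2 difference was -0.03, equal to that of all genes. *Pla2g4a*, the cytosolic phospholipase that releases arachidonic acid, was 102, 97.1, and 99.8 RPKM in *ptgs2*-KO and 135, 133, and 128 RPKM in *ptges*-KO samples (log2 difference 0.40 ± 0.06, adjusted p = 0.00087, limma). *Ptgs1*, which encodes COX-1, was 158 ± 11.7 and 152 ± 18.2 RPKM (SD, n = 3 each) and overlapped between the lines. The other PGE2 synthases overlapped too, with *ptges2* at 17.2 ± 2.94 and 16.7 ± 1.08 RPKM and *ptges3* at 348 ± 14.1 and 358 ± 10.5 RPKM. Transcripts of the synthases of prostaglandin D2, prostacyclin, and thromboxane were scarcely detected. *Ptgds*, *hpgds*, *ptgis*, and *tbxas1* were at most 0.12 RPKM in every one of the 6 samples, as was *hpgd*, the enzyme that begins prostaglandin breakdown, which was listed at 0. The paper nevertheless measured these prostanoids, or their stable products, in culture supernatants. Against scramble it reports more prostaglandin D2 and prostacyclin product from *ptges*-KO cells and less from *ptgs2*-KO cells, which also released slightly less thromboxane product. Low synthase RNA thus does not show that the prostanoids were absent.

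The largest change of this pathway other than *ptgs2* itself was in *ptgr2*, a prostaglandin reductase that acts on 15-keto metabolites. It was 0.06, 0.06, and 0.17 RPKM in *ptgs2*-KO samples and 5.65, 4.54, and 4.19 RPKM in *ptges*-KO samples, a log2 difference of 2.39 ± 0.13 (adjusted p = 3.9e-08, limma). Scramble samples had 3.64 to 4.89 RPKM, so that the *ptgs2*-KO line was the one that differed. *Ptgr1*, the related reductase, was 2.15 ± 0.18 and 3.37 ± 0.58 RPKM (adjusted p = 0.023), and it no longer passed without *ptgs2*-KO replicate 1, *ptges*-KO replicate 2, or *ptges*-KO replicate 3 (adjusted p = 0.090, 0.099, and 0.11) or with only the 2 groups in the model (0.051). The 4 higher genes became 2 with a filter at a mean of 10 RPKM. *Akr1b3*, *akr1b8*, *cbr1*, *abcc4*, *slco2a1*, *pla2g4b*, and *pla2g6* did not pass, with log2 differences between -0.48 and 0.27. With the replicate block within the 2 groups *pla2g6* passed as lower (adjusted p = 0.029, limma) and *akr1b3* as higher (0.012).

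Receptor transcripts were scarce. *Ptger1* (EP1) was the most abundant, at 27.1, 24.9, and 21.8 RPKM in *ptgs2*-KO and 21.6, 20.4, and 18.6 RPKM in *ptges*-KO samples, and did not pass (log2 difference -0.27 ± 0.10, adjusted p = 0.079, limma), although it passed with the replicate block within the 2 groups (0.014). *Ptger4* (EP4), which raises cyclic AMP, was 2.65, 1.70, and 1.40 RPKM against 0.85, 0.94, and 1.34 RPKM (adjusted p = 0.052). *Ptger2*, *ptger3*, and *ptgdr* were listed at 0 in all 6 samples, and *ptgir* and *tbxa2r* were at most 0.08 RPKM. *Ptgfr*, the prostaglandin F receptor, passed as lower with values of 0.11 to 0.16 RPKM against 0.58 to 0.72 RPKM, with adjusted p-values of 0.050 and 0.051 without *ptgs2*-KO replicate 1 and *ptges*-KO replicate 2. Among 14 cyclic AMP responsive genes tested, *pde4b*, a cyclic AMP phosphodiesterase, rose from 1.87, 1.58, and 1.49 RPKM to 3.94, 4.64, and 4.56 RPKM (log2 difference 1.02 ± 0.12, adjusted p = 4.8e-05), and *fosb* fell from 17.3 ± 2.41 to 11.4 ± 0.90 RPKM (adjusted p = 0.0020). The other 12 genes of that list did not pass, so that 7.14% were higher and 7.14% lower, near the 6.76% and 9.84% of all genes. The higher count of the whole list was 3 after scaling by the median ratio or quantile normalization.

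Genes of the response to low oxygen and of glycolysis were higher in *ptges*-KO cells. Hypoxia-inducible factors (HIFs) turn on glycolytic enzymes, enzymes that restrain mitochondrial oxidation, and the prolyl hydroxylases that mark HIFs for degradation, and they bind DNA at a short core sequence. Of 19 low oxygen response genes tested, 14 (73.7%) were higher, against 6.76% of all genes, and the other 5 did not pass. Their median log2 difference was 0.55, against -0.03 for all genes. Of 19 glycolysis genes, 13 (68.4%) were higher and 3 were lower (15.8%, against 9.84% of all genes), with a median of 0.45. The counts of higher genes stayed between 11 and 15 and between 9 and 16 over the 18 alternative fits, and 12 and 8 genes passed in each fit that tested them. The lower count of glycolysis genes was 1 without *ptges*-KO replicate 3.

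*Adm*, which encodes the vasodilator peptide adrenomedullin, had the largest rise of all genes tested. It was 0.10, 0.13, and 0.18 RPKM in *ptgs2*-KO samples and 64.3, 54.2, and 53.9 RPKM in *ptges*-KO samples, a log2 difference of 5.68 ± 0.11 (adjusted p = 2.4e-12, limma). Scramble samples lay between the lines at 4.69 to 5.68 RPKM, so that *adm* moved in opposite directions from scramble in the 2 knockouts. *Ndrg1*, a low oxygen and stress induced gene, was 35.5, 35.4, and 34.4 RPKM against 108, 99.5, and 100.2 RPKM (log2 difference 1.52 ± 0.08, adjusted p = 4.3e-08), with 47.0 to 52.4 RPKM in scramble samples. *Egln3*, one of the HIF prolyl hydroxylases, was 0.35, 0.32, and 0.24 RPKM against 2.16, 1.91, and 1.86 RPKM (1.19 ± 0.12, adjusted p = 2.0e-05), but scramble samples had 2.87 to 3.58 RPKM, so that this difference came from low values in *ptgs2*-KO cells. In contrast, *bnip3*, a mitophagy receptor, rose above both. It was 87.6, 101, and 97.6 RPKM in *ptgs2*-KO, 102 to 107 RPKM in scramble, and 207, 212, and 222 RPKM in *ptges*-KO samples (1.16 ± 0.09, adjusted p = 1.6e-06). *P4ha2*, a collagen prolyl hydroxylase, was 6.73, 8.47, and 6.73 RPKM against 18.3, 14.03, and 17.0 RPKM (1.07 ± 0.12, adjusted p = 5.0e-05). *Plin2*, which coats lipid droplets, *mxi1*, *ddit4*, *bnip3l*, *ero1l*, *stc2*, and *ankrd37* were also higher, by 0.42 to 0.66.

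Among the glycolytic enzymes, *pfkp*, the platelet type of the rate-controlling phosphofructokinase, had the largest difference. It was 12.2, 11.1, and 11.6 RPKM in *ptgs2*-KO samples and 38.0, 34.8, and 34.9 RPKM in *ptges*-KO samples, 3.08 times as much (log2 difference 1.54 ± 0.10, adjusted p = 2.8e-07, limma). *Pfkl*, the liver type, was higher as well (137 ± 2.34 against 211 ± 13.8 RPKM, SD, n = 3). *Pdk1*, which inhibits entry of pyruvate into the mitochondrial cycle, was 57.4, 55.3, and 51.6 RPKM against 118, 101, and 97.4 RPKM (0.93 ± 0.10, adjusted p = 2.7e-05). *Pgk1*, which forms ATP in the later part of the pathway, was 1191, 1263, and 1244 RPKM against 2316, 2134, and 2060 RPKM (0.81 ± 0.08, adjusted p = 1.1e-05). *Gpi1*, *aldoa*, *tpi1*, *pgam1*, and *ldha* were higher by 0.40 to 0.63, and the 3 *ptges*-KO samples lay above the 3 *ptgs2*-KO samples for each of them, although *aldoa* did not pass after quantile normalization (adjusted p = 0.12). The glycolysis genes together made up 1.95%, 2.26%, and 2.23% of the summed RPKM in *ptgs2*-KO samples and 2.91%, 2.92%, and 2.96% in *ptges*-KO samples, with 1.97% to 2.00% in scramble samples. The transcripts of the lactate transporters went the other way. *Slc16a1* (MCT1) was 171, 187, and 158 RPKM against 143, 115, and 115 RPKM (-0.47 ± 0.10, adjusted p = 0.0077). Scramble samples had 148 to 166 RPKM, and the *ptges*-KO line was below them (-0.32, adjusted p = 0.035, limma). *Slc16a3* (MCT4) was 366 ± 35.0 against 280 ± 22.7 RPKM, with 253 to 302 RPKM in scramble samples. For this gene the *ptgs2*-KO line was the one that differed from scramble (0.41, adjusted p = 0.038). The *ptges*-KO line did not pass against scramble (0.03, adjusted p = 0.89). The *slc16a3* call between the lines was lost in 9 of 18 alternative fits. Among them were the fits without *ptgs2*-KO replicate 1, 2, or 3 (adjusted p = 0.061, 0.14, and 0.050) or *ptges*-KO replicate 2 or 3 (0.15 and 0.10). Of the subunits of oxidative phosphorylation, 45 of 47 did not pass, and their summed share overlapped between the lines (0.840% to 1.05% against 0.894% to 1.04%). With the replicate block within the 2 groups 11 subunits were higher and 2 were lower, and neither of the 2 calls was kept in every alternative fit.

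The starts of genes were searched for the HIF core sequence ACGTG on both strands, in the 250 bases before each start in RefSeq (GRCm38.p6). Among the 27 called higher genes of the low oxygen and glycolysis lists 24 had a promoter sequence, and 13 of these held it (54.2%), as did 2 of the 3 lower glycolysis genes. It was present for 29.3% of all genes called higher that had a sequence, for 26.8% of those called lower, for 5 of 13 lower lipid synthesis genes (38.5%), for 26.2% of the genes tested that had one, and for 18.5% of all 27025 genes in the promoter set. The windows of the 24 genes held the cyclic AMP element TGACGTCA in 1 gene, the AP-1 element TGACTCA in 1, and the TEAD element GGAATG in 2, against 3.30%, 3.71%, and 12.4% of the genes tested that had a sequence and 1.77%, 5.16%, and 14.4% of all genes in the set. A gene was counted when any of its starts held the sequence. Both lists name genes already known for these pathways, and the share among their members that were not called was not computed. The 54.2% may therefore belong to the lists as such, and it says nothing about why genes were called. The 160 bases before the start are shown for 4 genes with matches, and for *adm*, which had the largest difference and no match in its window. *Ldha* has 2 starts, of which the one with a match is shown and the other held none. Sequences run 5′ to 3′ on the strand of the gene and end at the base before the start, and capitals mark ACGTG or its reverse complement CACGT, which share bases where they overlap.
*Pgk1*, chrX:106186940-106187099, plus strand: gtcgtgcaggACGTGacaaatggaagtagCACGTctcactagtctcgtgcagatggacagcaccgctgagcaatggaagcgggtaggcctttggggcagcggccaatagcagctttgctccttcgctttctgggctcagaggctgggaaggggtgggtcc
*Ldha*, chr7:46845644-46845803, plus strand: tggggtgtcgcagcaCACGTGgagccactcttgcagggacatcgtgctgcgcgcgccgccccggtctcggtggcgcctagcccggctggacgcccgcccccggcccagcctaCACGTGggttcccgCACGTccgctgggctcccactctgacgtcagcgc
*Bnip3*, chr7:138909507-138909666, minus strand: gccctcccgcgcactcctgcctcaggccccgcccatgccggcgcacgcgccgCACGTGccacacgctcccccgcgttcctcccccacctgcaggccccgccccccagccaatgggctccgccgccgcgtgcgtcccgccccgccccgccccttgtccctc
*P4ha2*, chr11:54100764-54100923, plus strand: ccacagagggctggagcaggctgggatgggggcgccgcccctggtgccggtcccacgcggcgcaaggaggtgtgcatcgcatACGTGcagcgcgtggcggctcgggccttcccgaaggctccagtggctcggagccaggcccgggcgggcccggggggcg
*Adm*, chr7:110627497-110627656, plus strand: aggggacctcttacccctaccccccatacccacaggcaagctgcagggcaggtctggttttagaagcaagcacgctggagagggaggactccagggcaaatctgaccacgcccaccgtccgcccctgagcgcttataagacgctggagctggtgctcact
Counted on both strands, these stretches held 2 matches in *pgk1*, 5 in *ldha*, 2 in *bnip3*, and 1 in *p4ha2*. A match describes the letters in the window only, and binding was not measured.

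**Figure D2:**
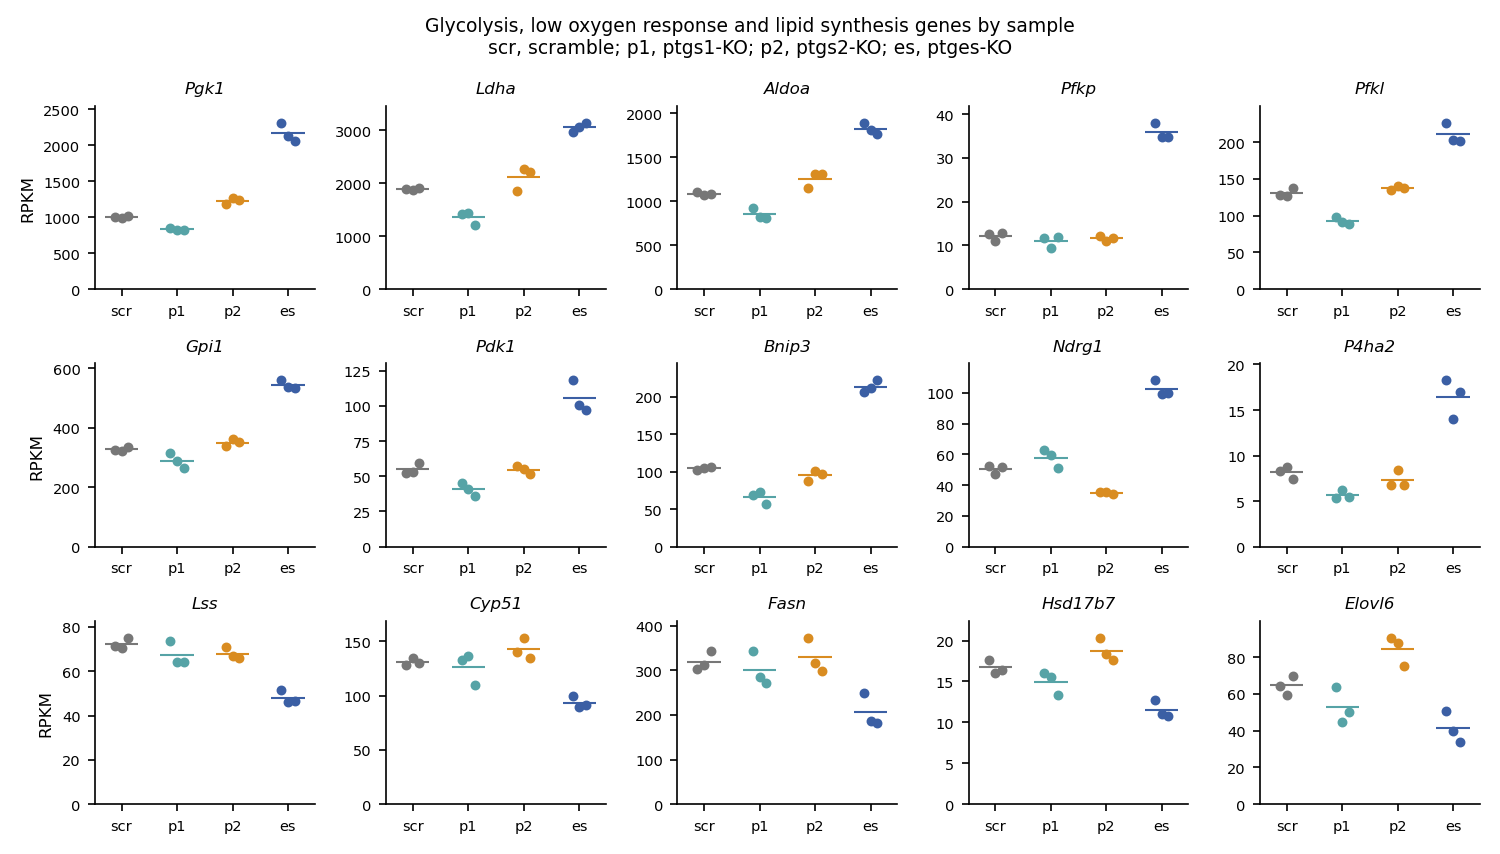
RPKM of glycolysis, low oxygen response, and lipid synthesis genes in each sample (points) with the mean of each line (bars), from left to right scramble (scr), *ptgs1*-KO (p1), *ptgs2*-KO (p2), and *ptges*-KO (es). For *pgk1* the *ptges*-KO samples sit at 2060 to 2316 RPKM and the *ptgs2*-KO samples at 1191 to 1263 RPKM, whereas for *fasn* the *ptges*-KO samples sit at 182 to 250 RPKM and the *ptgs2*-KO samples at 298 to 373 RPKM.

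Genes of cholesterol and fatty acid synthesis were lower in *ptges*-KO cells. Of 35 tested, 15 (42.9%) were lower, against 9.84% of all genes, and 1 was higher. The median log2 difference was -0.31, and 3 of the 35 were positive. *Cyp51*, which removes a methyl group from lanosterol, was 139.99, 153.5, and 134 RPKM in *ptgs2*-KO samples and 99.9, 89.5, and 91.1 RPKM in *ptges*-KO samples (-0.60 ± 0.09, adjusted p = 0.00042, limma). *Lss*, which forms lanosterol (67.9 ± 2.74 against 48.0 ± 2.94 RPKM), and *hsd17b7*, a later step of cholesterol synthesis (18.8 ± 1.41 against 11.5 ± 1.04 RPKM), were lower without overlap between the lines. In fatty acid synthesis, *fasn* was 373, 316, and 298 RPKM against 250, 187, and 182 RPKM (-0.68 ± 0.13, adjusted p = 0.0030), and the elongase *elovl6* was 90.7, 87.7, and 75.4 RPKM against 51.0, 40.03, and 34.0 RPKM (-1.02 ± 0.15, adjusted p = 0.00039). Between *ptgs2*-KO and scramble samples none of these 5 enzymes passed the test (adjusted p = 0.12 to 0.87), and the 3 *ptges*-KO samples lay below all samples of both. The one higher gene, the sterol isomerase *ebp*, went from 49.6 ± 3.16 to 60.6 ± 3.91 RPKM and was called in 12 of 18 alternative fits, not in those without *ptgs2*-KO replicate 1 or 3 or *ptges*-KO replicate 1 or 3 (adjusted p = 0.11, 0.072, 0.071, and 0.091). The number of lower genes was 8 without *ptges*-KO replicate 2 and 9 without *ptges*-KO replicate 3, and 8 genes passed in each alternative fit. In both lines replicate 1 was the highest sample for *fasn*, *elovl6*, *lss*, and *hsd17b7*.

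Genes that respond to amino acid shortage and to stress of the endoplasmic reticulum were more often higher. Of 39 tested, 11 were higher (28.2%, against 6.76% of all genes) and 2 were lower (5.13%, against 9.84%), at a median of 0.09. *Nupr1*, a stress-induced chromatin protein, was 76.0, 95.3, and 100.0 RPKM in *ptgs2*-KO samples and 142, 211, and 192 RPKM in *ptges*-KO samples (0.99 ± 0.14, adjusted p = 0.00033, limma). *Trib3*, a pseudokinase that restrains AKT, was 40.9, 39.1, and 42.7 RPKM against 67.9, 66.7, and 70.6 RPKM (0.73 ± 0.07, adjusted p = 1.8e-05). *Chac1*, *asns*, *cebpb*, and *ddit4* rose by 0.39 to 0.58, and these 6 genes and *vldlr* passed in each alternative fit. The lower genes were *hyou1* and *creld2*, both of the folding machinery, at adjusted p-values of 0.011 and 0.028, and neither passed without *ptges*-KO replicate 3 (0.053 and 0.12). *Hyou1* was also lost without *ptges*-KO replicate 2 (0.054), and *creld2* without *ptgs2*-KO replicate 1 or 2 (0.069 and 0.13). The count of higher genes was 7 without *ptges*-KO replicate 2, and the count of lower genes was 7 with the replicate block within the 2 groups.

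Collagen chains were lower as a group, with 8 of 11 tested lower (72.7%, against 9.84% of all genes). Each of the 8 passed in every alternative fit that tested it. Beyond collagen, 16 of 35 genes for matrix glycoproteins and proteoglycans were called, at a median of -0.17. Of the 35, 10 were lower (28.6%, against 9.84% of all genes) and 6 were higher (17.1%, against 6.76%). The 2 largest changes were in genes of one family. *Fbln2*, a fibulin of elastic fibers and basement membranes, was 558, 540, and 463 RPKM in *ptgs2*-KO samples and 79.9, 74.5, and 74.1 RPKM in *ptges*-KO samples (-2.75 ± 0.09, adjusted p = 2.4e-10, limma). *Fbln1* went the other way, from 0.02, 0.03, and 0.02 RPKM to 18.5, 15.0, and 17.2 RPKM (4.13 ± 0.11, adjusted p = 1.0e-10), and scramble samples had 0.10 to 0.16 RPKM. Another fibulin, *fbln5*, rose by 0.55 ± 0.09 (26.1 ± 2.35 against 38.7 ± 1.34 RPKM). *Fn1*, which encodes fibronectin, was 43.0, 34.1, and 31.6 RPKM against 18.8, 15.1, and 14.6 RPKM (-1.12 ± 0.12, adjusted p = 2.6e-05). *Npnt*, an integrin ligand of basement membranes, was 11.1, 8.65, and 6.11 RPKM against 0.39, 0.50, and 0.56 RPKM (-2.67 ± 0.17, adjusted p = 2.4e-07). The heparan sulfate carriers were split, since the glypican *gpc4* was lower (20.2 ± 2.47 against 7.03 ± 1.72 RPKM) while *gpc6* (11.02 ± 0.95 against 17.9 ± 2.76 RPKM) and the syndecan *sdc2* (80.96 ± 3.97 against 127 ± 7.15 RPKM) were higher. *Hs6st2*, which adds sulfate to heparan chains, fell from 31.8, 27.0, and 23.4 RPKM to 2.41, 2.17, and 1.32 RPKM (-3.27 ± 0.21, adjusted p = 2.3e-07).

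Among proteases, inhibitors, and adhesion genes most calls were lower, as were 59.3% of the calls of all genes. Of the plasminogen activators *plat* fell (31.4 ± 3.39 against 20.5 ± 1.32 RPKM) and *plau* rose (3.42 ± 0.82 against 5.58 ± 0.48 RPKM). In all, 6 of 29 genes for matrix proteases and inhibitors were lower (20.7%, against 9.84% of all genes) and 2 were higher (6.90%, against 6.76%). With the replicate block within the 2 groups 11 were lower. Of 31 integrin, cadherin, and adhesion genes, 7 were lower (22.6%, against 9.84% of all genes) and 3 were higher (9.68%, against 6.76%). *Alcam* (2.30 ± 0.25 against 0.66 ± 0.03 RPKM), *nrcam* (4.68 ± 0.56 against 1.64 ± 0.32 RPKM), and the nectin *pvrl1* (5.34 ± 0.77 against 2.63 ± 0.38 RPKM) were lower. *Cdh6*, a cadherin of neural crest derivatives, was higher (63.2 ± 8.90 against 99.0 ± 18.8 RPKM), as was the tetraspanin *cd9* (653 ± 67.9 against 961 ± 55.4 RPKM). The lower count was 11 without *ptges*-KO replicate 1.

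**Figure D3:**
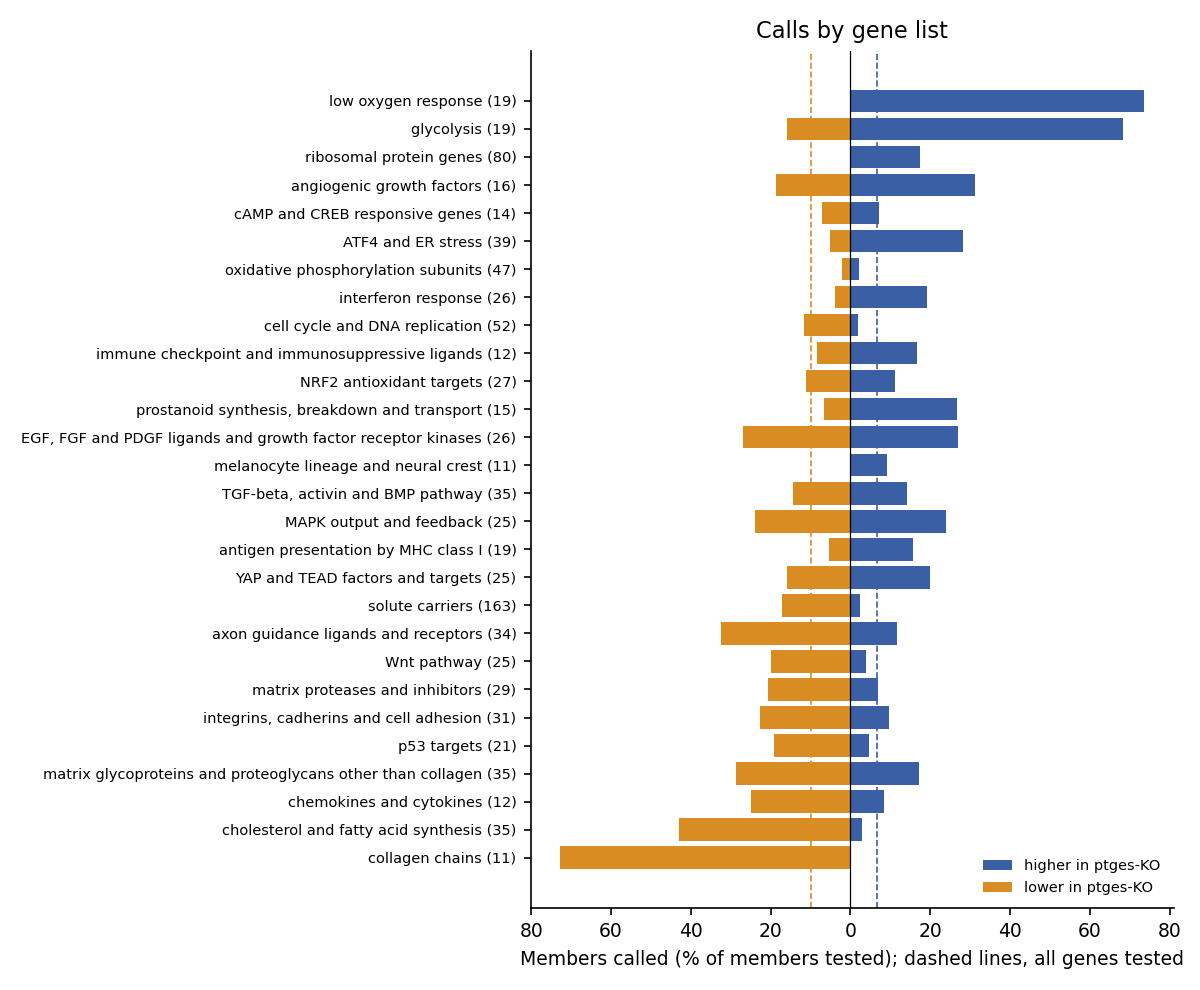
Share of the members tested of each gene list that were higher (blue, to the right) or lower (orange, to the left) in *ptges*-KO cells when set against *ptgs2*-KO cells, with the number tested in parentheses and lists of at least 10 genes ordered by median difference. Dashed lines mark the 6.76% higher and 9.84% lower of all genes tested, and low oxygen response (73.7% higher), glycolysis (68.4% higher), lipid synthesis (42.9% lower), and collagen (72.7% lower) lie farthest from them.

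In the Wnt pathway 5 of 25 genes tested were lower (20%, against 9.84% of all genes), 1 was higher (4%, against 6.76%), and 19 did not pass, with a median of -0.14 and 9 positive differences. *Lrp5*, a Wnt coreceptor, was 13.8, 12.5, and 10.8 RPKM in *ptgs2*-KO samples and 4.04, 3.31, and 3.12 RPKM in *ptges*-KO samples (-1.57 ± 0.12, adjusted p = 1.0e-06, limma). *Ndp*, whose product norrin signals through a frizzled receptor with this coreceptor, was 4.87, 5.05, and 5.00 RPKM against 0.21, 0.14, and 0.17 RPKM (-2.35 ± 0.11, adjusted p = 8.2e-09). The ligand *wnt7b* was 11.8, 8.83, and 11.2 RPKM against 1.49, 1.02, and 1.38 RPKM (-2.33 ± 0.25, adjusted p = 2.6e-05). *Notum*, a secreted Wnt inhibitor, and the transcription factor *tcf7* were lower too, and *wnt4* was higher (1.25 ± 0.17 against 3.63 ± 0.84 RPKM). For *lrp5*, *ndp*, *wnt7b*, and *notum* the *ptges*-KO samples were also below all 3 scramble samples. All 5 lower genes passed in every alternative fit that tested them. The higher count rose to 8 once trends with transcript length and GC content were removed, and it was 2 without *ptgs2*-KO replicate 1 and 4 with the replicate block within the 2 groups.

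The TGF-beta, activin, and BMP pathway had 5 higher and 5 lower genes of 35 (14.3% each, against 6.76% and 9.84% of all genes). *Eng*, the coreceptor endoglin, is not a member of that list and is not in these counts. It was 0.55, 1.08, and 0.89 RPKM in *ptgs2*-KO samples and 34.1, 25.8, and 22.4 RPKM in *ptges*-KO samples (3.94 ± 0.14, adjusted p = 7.2e-10, limma). Scramble samples had 50.8 to 54.5 RPKM, above both lines. *Fstl3*, which binds activin, was 11.9, 10.5, and 10.7 RPKM against 1.27, 0.80, and 1.06 RPKM (-2.56 ± 0.12, adjusted p = 8.8e-09), and scramble samples had 0.66 to 0.82 RPKM, so that the *ptgs2*-KO line stood apart. The BMP antagonist *grem1* was lower (61.4 ± 2.53 against 28.8 ± 3.21 RPKM) and the ligand *bmp4* was higher (5.92 ± 0.36 against 12.2 ± 1.28 RPKM). The BMP target genes *id1* (60.3 ± 7.67 against 91.7 ± 10.2 RPKM) and *id3* (91.2 ± 8.36 against 126 ± 7.40 RPKM) were higher. *Tgfbr2*, the ligand-binding TGF-beta receptor, was lower (34.0 ± 3.73 against 21.3 ± 3.69 RPKM). The lower count was 11 with the replicate block within the 2 groups.

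Growth factors and receptor kinases were divided, with 7 higher and 7 lower of 26 (26.9% each, against 6.76% and 9.84% of all genes). *Ror2*, a Wnt-binding receptor kinase, was 9.19, 8.50, and 7.21 RPKM in *ptgs2*-KO samples and 2.58, 2.21, and 2.51 RPKM in *ptges*-KO samples (-1.43 ± 0.11, adjusted p = 1.3e-06, limma). The EGF receptor ligands *btc* (17.4 ± 0.63 against 8.74 ± 0.62 RPKM) and *ereg* (74.1 ± 4.53 against 56.2 ± 5.05 RPKM) were lower, and *hbegf* was higher (130 ± 4.11 against 160 ± 1.86 RPKM). The KIT ligand *kitl* fell from 14.8 ± 0.97 to 8.13 ± 1.11 RPKM, and *fgfr1* from 19.9 ± 2.61 to 12.5 ± 1.53 RPKM. Of the PDGF ligands *pdgfb* (0.20 ± 0.08 against 1.84 ± 0.19 RPKM) and *pdgfd* (3.80 ± 0.06 against 7.42 ± 1.38 RPKM) were higher and *pdgfc* was lower (71.6 ± 6.92 against 42.6 ± 4.41 RPKM). The higher count was 4 without *ptgs2*-KO replicate 2. Transcripts that report MAPK activity did not move together, since *egr1* (27.0 ± 2.72 against 45.5 ± 5.39 RPKM), *ier3* (61.6 ± 2.88 against 103 ± 4.77 RPKM), and *myc* (86.3 ± 7.57 against 117 ± 12.1 RPKM) were higher while *dusp5* (69.1 ± 4.34 against 52.2 ± 2.27 RPKM) and *spred3* (22.8 ± 3.00 against 16.3 ± 0.59 RPKM) were lower. That list had 6 higher and 6 lower of 25 (24% each, against 6.76% and 9.84% of all genes). The lower count was 3 without *ptgs2*-KO replicate 1, *ptges*-KO replicate 2, or *ptges*-KO replicate 3 and 10 without *ptges*-KO replicate 1 or with the block.

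Semaphorins, ephrins, and their receptors, which guide axons and migrating cells, were more often lower. Of 34 tested, 11 were lower (32.4%, against 9.84% of all genes) and 4 were higher (11.8%, against 6.76%). *Sema6b* was 9.17, 8.76, and 7.85 RPKM in *ptgs2*-KO samples and 2.69, 2.20, and 2.12 RPKM in *ptges*-KO samples (-1.53 ± 0.13, adjusted p = 3.0e-06, limma). *Sema3a* was 47.0, 46.3, and 35.3 RPKM against 21.2, 17.5, and 19.0 RPKM (-1.11 ± 0.14, adjusted p = 1.0e-04), and *sema7a* was 50.9, 50.0, and 45.4 RPKM against 23.04, 21.7, and 24.3 RPKM (-1.05 ± 0.09, adjusted p = 3.9e-06). *Sema3c*, *sema3d*, and *sema3f* were higher by 0.58 to 0.96. The lower count was 7 without *ptgs2*-KO replicate 1 or *ptges*-KO replicate 3, and the list had 10 higher genes once trends with transcript length and GC content were removed. Over the whole comparison the 1110 lower genes had longer transcripts than the 763 higher ones, with medians of 4234 and 2816 bases against 3423 bases for all genes tested, and the part of transcript length in these counts was not tested beyond that removal.

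Among immune genes, the largest difference was in *aim2*, a sensor of cytosolic DNA, with 13.6, 13.1, and 13.2 RPKM in *ptgs2*-KO samples and 0.05, 0.09, and 0.09 RPKM in *ptges*-KO samples (-3.73 ± 0.11, adjusted p = 2.2e-10, limma). Scramble samples had 0.68 to 1.01 RPKM. *Cx3cl1*, the chemokine fractalkine, was 32.4, 30.0, and 27.6 RPKM against 10.4, 9.80, and 9.56 RPKM (-1.50 ± 0.11, adjusted p = 5.8e-07), with 45.4 to 49.2 RPKM in scramble samples. *Csf1*, the macrophage growth factor, was 643, 597, and 507 RPKM against 342, 300.2, and 293 RPKM (-0.90 ± 0.10, adjusted p = 4.9e-05), and *spp1*, which encodes osteopontin, was 1028, 1256, and 1196 RPKM against 681, 813, and 853 RPKM (-0.57 ± 0.12, adjusted p = 0.0050). Thus 3 of 12 chemokine and cytokine genes tested were lower (25.0%, against 9.84% of all genes). *Mif* was higher, a call lost after quantile normalization or once length and GC trends were removed (adjusted p = 0.15 and 0.090). The lower count was 5 without *ptges*-KO replicate 1. Of the ligands of T-cell and NK-cell receptors, the costimulatory *cd80* was 7.84, 8.02, and 7.50 RPKM against 3.80, 3.40, and 2.82 RPKM (-1.02 ± 0.14, adjusted p = 0.00029), while *raet1e*, an NKG2D ligand, was 6.04, 6.53, and 8.03 RPKM against 9.65, 12.8, and 14.2 RPKM (0.74 ± 0.14, adjusted p = 0.0031). Of 12 checkpoint and immunosuppressive ligand genes tested, 2 were higher (16.7%, against 6.76% of all genes) and 1, *cd80*, was lower (8.33%, against 9.84%). In antigen presentation 3 of 19 genes were higher (15.8%, against 6.76% of all genes) and 1 was lower (5.26%, against 9.84%). *Tap2*, a subunit of the peptide transporter, was 9.97 ± 0.76 against 14.7 ± 0.83 RPKM, and *b2m* rose by 0.41 ± 0.11 (adjusted p = 0.021), a call lost without *ptgs2*-KO replicate 1, *ptges*-KO replicate 2, or *ptges*-KO replicate 3 (adjusted p = 0.077, 0.063, and 0.089). The higher count of that list was 1 without *ptges*-KO replicate 2. Interferon response genes had 5 higher (19.2%, against 6.76% of all genes) and 1 lower of 26 (3.85%, against 9.84%). When 1 library was left out 2 to 4 were higher, with 3 without *ptgs2*-KO replicate 1 or 2 or *ptges*-KO replicate 3 and 2 without *ptges*-KO replicate 2. With the replicate block within the 2 groups 10 were higher and 4 were lower.

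Of 52 cell cycle and DNA replication genes, 45 did not pass, 6 were lower (11.5%) and 1 was higher (1.92%), a lower share close to the 9.84% of all genes. *Ccnd2*, a D-type cyclin, was 110, 97.2, and 91.3 RPKM in *ptgs2*-KO samples and 46.3, 38.4, and 35.8 RPKM in *ptges*-KO samples (-1.29 ± 0.11, adjusted p = 3.0e-06, limma). *E2f8*, a transcriptional repressor of the cycle, was lower as well (65.5 ± 8.39 against 37.5 ± 4.94 RPKM). The lower count was 3 without *ptges*-KO replicate 2, and the higher count was 7 after either other scaling. With the replicate block within the 2 groups 7 were higher and 10 were lower. The p53 target *cdkn1a*, a cyclin-dependent kinase inhibitor, fell from 171, 175, and 171 RPKM to 134, 126, and 133 RPKM (-0.39 ± 0.07, adjusted p = 0.0015), near the 129 to 137 RPKM of scramble samples. Of 21 p53 targets tested, 4 were lower (19.0%, against 9.84% of all genes) and 1 was higher (4.76%, against 6.76%). Angiogenic factors were split as well. Of 16 tested, *adm* included, 5 were higher (31.25%, against 6.76% of all genes) and 3 were lower (18.75%, against 9.84%). *Pgf*, the placental growth factor, was 4.97, 5.10, and 5.06 RPKM against 0.60, 0.54, and 0.46 RPKM (-1.98 ± 0.12, adjusted p = 1.7e-07), whereas *apln* (5.22 ± 0.34 against 8.14 ± 0.21 RPKM) and *vegfb* (42.9 ± 3.16 against 55.6 ± 0.93 RPKM) were higher.

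Several genes were present in one line and nearly absent from the other. With limits of at most 0.2 RPKM on average in one line and at least 5 RPKM in the other, 7 genes were switched toward *ptges*-KO cells (*5730409E04Rik*, *adm*, *fbln1*, *itm2a*, *magohb*, *morn4*, and *nme4*), and *aim2* and *kcnk5* toward *ptgs2*-KO cells. A further gene within these limits, *DQ726833*, was present only in *ptgs2*-KO replicate 3 and did not pass. *Magohb*, a subunit of the exon junction complex, was 0.10, 0, and 0.35 RPKM in *ptgs2*-KO samples and 12.2, 16.6, and 17.3 RPKM in *ptges*-KO samples, and scramble samples had 0.27 to 0.53 RPKM. *Itm2a* and *morn4* had the same pattern, at most 0.27 RPKM in scramble and *ptgs2*-KO samples and 7.53 to 9.25 RPKM in *ptges*-KO samples. *Nme4*, a mitochondrial nucleoside diphosphate kinase, was listed at 0 in all scramble and *ptgs2*-KO samples and had 7.32, 9.04, and 9.85 RPKM in *ptges*-KO samples. It was also present in the *ptgs1*-KO line, at 5.04 to 5.78 RPKM. *Kcnk5*, a potassium channel, was 9.34, 9.24, and 7.28 RPKM in *ptgs2*-KO samples and 0.03, 0.02, and 0 RPKM in *ptges*-KO samples, against 10.3 to 11.2 RPKM in scramble samples. *Prrg1*, a membrane protein, was 4.21, 3.56, and 5.09 RPKM in *ptgs2*-KO samples and was listed at 0 in all *ptges*-KO samples. Other large rises were in *ctsc*, which encodes the protease cathepsin C (2.25, 3.71, and 2.64 RPKM against 37.9, 34.2, and 32.4 RPKM), in the receptor *gpr149* (0.16, 0.32, and 0.21 RPKM against 16.02, 12.8, and 13.6 RPKM), and in the mitochondrial folate enzyme *aldh1l2* (0.27, 0.27, and 0.19 RPKM against 13.6, 13.1, and 11.9 RPKM). Other large falls were in *ak1*, an adenylate kinase (112, 121, and 110 RPKM against 24.4, 26.9, and 23.7 RPKM), and in the small heat shock protein *hspb1* (4.08, 4.95, and 3.69 RPKM against 0, 0.07, and 0.13 RPKM). The adjusted p-values of *magohb*, *itm2a*, *morn4*, *nme4*, *kcnk5*, *prrg1*, *ctsc*, *gpr149*, *aldh1l2*, *ak1*, and *hspb1* ranged from 3.2e-10 to 4.6e-07 (limma), and each passed in all alternative fits that tested the gene.

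**Figure D4:**
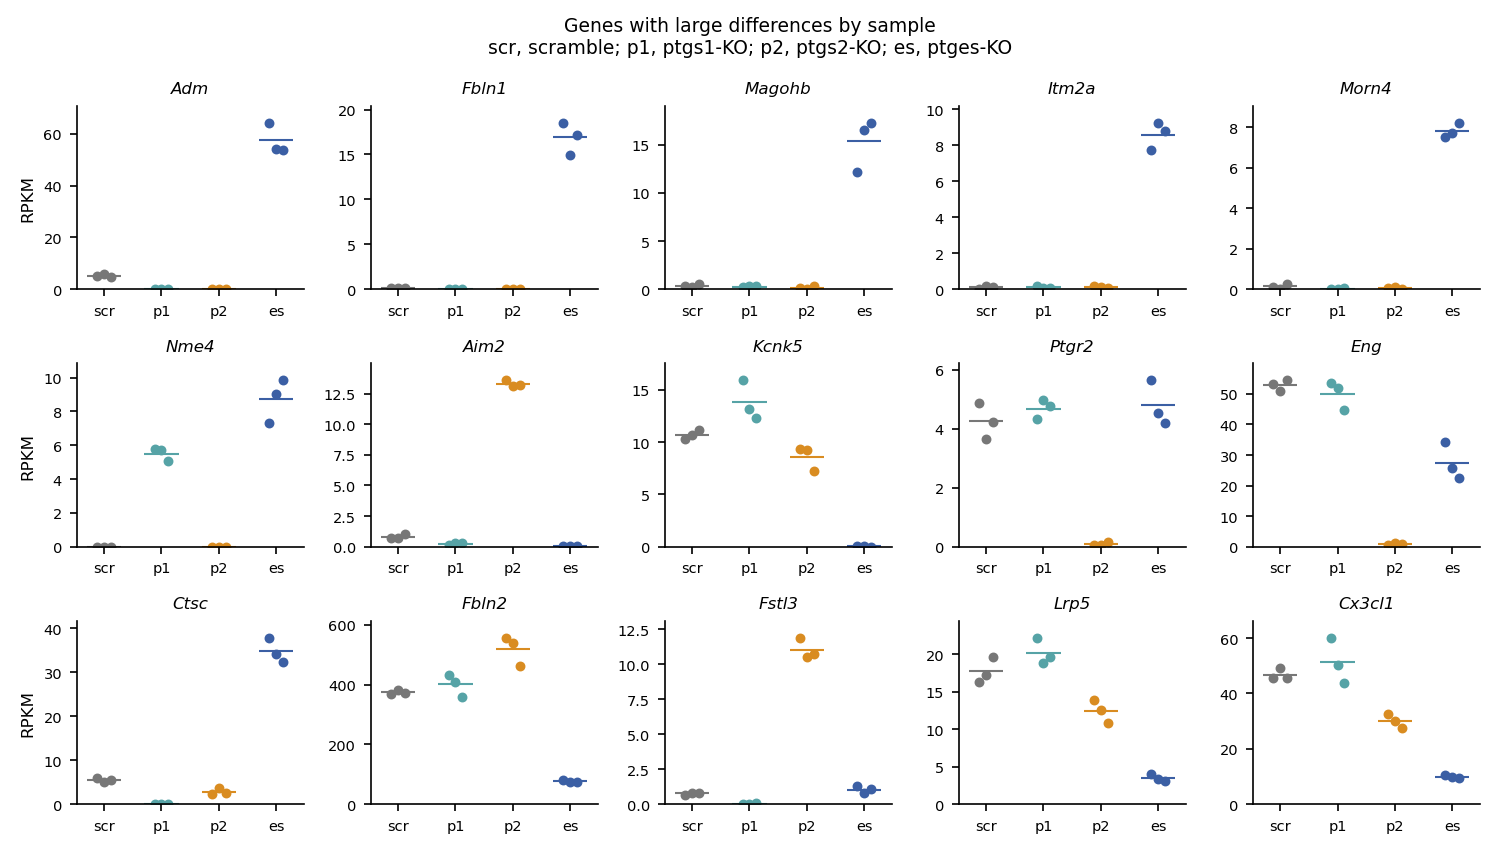
RPKM of genes with large differences in each sample (points) with the mean of each line (bars), with lines ordered scramble (scr), *ptgs1*-KO (p1), *ptgs2*-KO (p2), *ptges*-KO (es). *Fbln1*, *magohb*, *itm2a*, and *morn4* exceed 7 RPKM in *ptges*-KO samples only, *aim2* and *fstl3* stand out in *ptgs2*-KO samples, and *eng* is low in *ptgs2*-KO samples at 0.55 to 1.08 RPKM against 22.4 to 34.1 RPKM in *ptges*-KO samples.

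The lower genes were not spread evenly over the genome. Positions in GENCODE M21 (GRCm38) were available for 10677 genes tested, which were divided into 203 windows of 10 Mb with at least 20 genes each. In 193 windows the median log2 difference lay between -0.17 and 0.20. The other 10 windows, all below -0.3, were adjacent and formed 2 segments, chromosome 3 from 100 to 160 Mb and chromosome 16 from 20 to 60 Mb. On the segment of chromosome 3, 116 of 194 genes were lower (59.8%) and 2 were higher, with a median of -0.39. On that of chromosome 16, 85 of 154 were lower (55.2%) and 4 were higher, with a median of -0.40. At all other positions 8.25% of genes were lower and 7.14% were higher, with a median of -0.02. The 201 lower genes of the segments thus belong among the 1110 lower genes of the whole comparison. Set against the scramble mean, the median of the genes on chromosome 3 was 0.23, 0.21, and 0.17 in the *ptgs2*-KO samples and -0.15, -0.21, and -0.23 in the *ptges*-KO samples, while on chromosome 16 it was 0.11, 0.10, and 0.01 against -0.24, -0.31, and -0.33. The 3 samples of each of these 2 lines agreed in sign on both segments. However, the 0.01 of *ptgs2*-KO replicate 3 on chromosome 16 lay within the range of the scramble samples there (-0.002, -0.037, and 0.044). The *ptgs1*-KO samples were at -0.20, -0.23, and -0.38 on the segment of chromosome 3 and at 0.11, 0.10, and -0.05 on that of chromosome 16. Differences from scramble were not limited to the segments. At 30 to 40 Mb of chromosome 3 the median difference from scramble was 0.25 in *ptgs2*-KO and 0.23 in *ptges*-KO cells. The segments were chosen after their values were seen and were not tested, and DNA copy number was not measured. Of the genes described above, *npnt*, *csf1*, *elovl6*, *ptgfr*, and *slc16a1* lie on the segment of chromosome 3 and *cd80* and *alcam* on that of chromosome 16, as do *gclm* and *col8a1* of the lists. Of the lower genes of the lists, 1 of 15 for lipid synthesis, 1 of 8 for collagen, 2 of 10 for other matrix proteins, 2 of 7 for adhesion, and 4 of 28 solute carriers lie on the segments, and all 11 for axon guidance lie elsewhere.

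**Figure D5:**
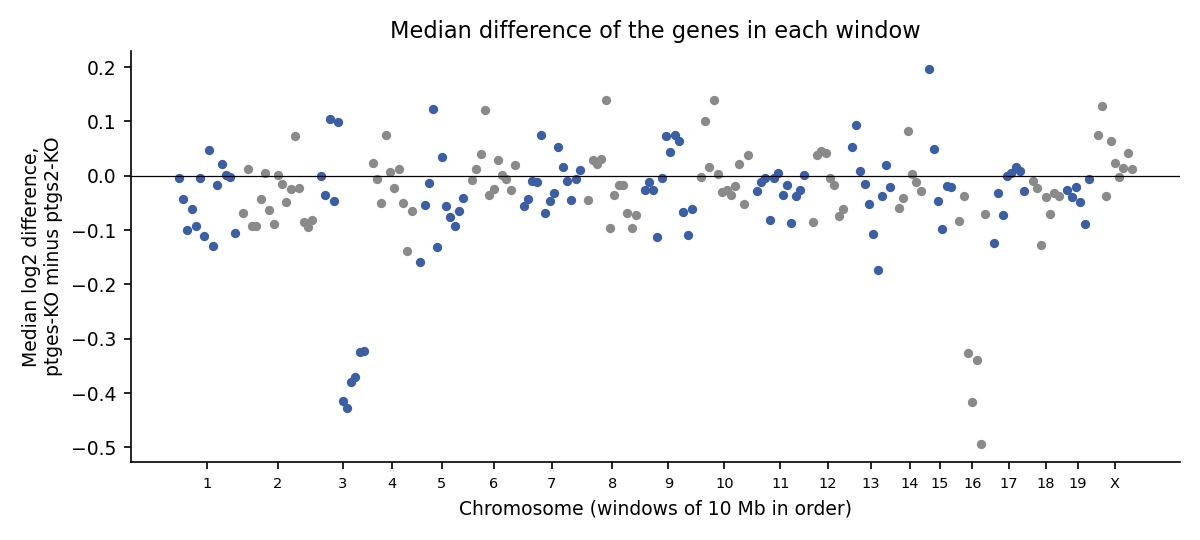
Median log2 difference, *ptges*-KO minus *ptgs2*-KO, of the genes in each 10 Mb window with at least 20 genes tested, in chromosome order with alternating colors. The 10 windows below -0.3 lie on chromosomes 3 and 16, and the other 193 lie between -0.17 and 0.20.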

How the data were processed

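RNA-seq libraries of 12 samples were sequenced as paired-end reads, and the authors deposited RPKM values per gene, to 2 decimals, with their normalization included. The genome build was mm10 per the submitters' processing notes, and the aligner, the counter, and the annotation are not given in the sources used here. Groups came from the sample labels, and all 12 columns were used. The summed RPKM of the 6 samples compared was 884743 to 893807. Their depth was estimated from the smallest step of value times transcript length, and whole counts were not recovered, so no intervals for counting error were computed.

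Values were analyzed as log2(RPKM + 1), a log2 scale computed here from the deposited values, in R 4.3.3 with limma 3.58.1. Genes averaging 1 RPKM or more in the series were fitted with all 4 groups in 1 model (lmFit, contrasts.fit, and eBayes with trend), and p-values were adjusted over all 11282 genes by Benjamini-Hochberg at 0.05. The pseudocount understates changes of low genes. Python 3.11.15 and matplotlib 3.10.9 were used for the figures. The steps were tested on simulated data.

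The comparison, the gene lists, and the segments were chosen with earlier results of these data known. Named genes were the targets, the measured prostanoid genes, the 12 largest rises and 12 largest falls on the log2 scale without overlap, the 5 largest rises and 5 largest falls in mean RPKM, up to 3 called genes per list and direction, and switched genes. A few of these are not reported here. Other list members and solute carriers were chosen for description after their values were seen. Transcript length, GC content, and position came from GENCODE M21, matched for 94.6% of genes tested, and promoters from RefSeq.

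Samples share replicate numbers 1 to 3, whose meaning the labels do not state. Deviations from the group means correlated between same-numbered *ptgs2*-KO and *ptges*-KO samples with r = 0.57, 0.11, and 0.25 across genes, which are not independent replicates, and all 3 exceed the limit of 0.1 used to take the numbers as pairs. However, *ptgs2*-KO replicate 2 with *ptges*-KO replicate 3 gave 0.32 and replicate 3 with 2 gave 0.22, so that mainly replicate 1 of both lines stood apart. The block was an alternative. Other alternatives included a pseudocount of 0.1, omission of the filter, filters at a mean of 10 RPKM or over the 6 samples, median ratio and quantile scaling, only the 2 groups in the model, eBayes without trend, an absolute log2 difference of at least 1, and each replicate left out. A loess correction of each sample for transcript length and GC (span 0.3), with and without the block, was added after the data were seen.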

Additional observations from a re-analysis of the deposited data

How the results depend on the processing

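The differences of *ptgs2* and *ptges* kept their direction and passed the test in all 18 alternative fits, and 103 of the 136 named genes that were called passed in every fit that tested them. The number of changed genes moved more. Against 1873 (763 higher and 1110 lower), it was 3827 (1564 and 2263) with the replicate block within the 2 groups, 2838 (1432 higher) after the length and GC correction, and 195 (83 and 112) with an absolute log2 difference of at least 1. The higher count was 1289 after median ratio scaling, 506 with a filter at a mean of 10 RPKM, where fewer genes were tested, and 1379 with the block and this correction together. Without 1 library the counts ranged from 1104 to 2236 in all, 482 to 773 higher, and 622 to 1463 lower. With the block over all 12 samples it was 2011, of which 1792 were shared with the 1873. Beyond the counts given beside the lists, the block within the 2 groups ended the call of *eef1a1* and added those of *pla2g6*, *akr1b3*, and *ptger1* among the named genes.

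The signs that reversed belonged to prostanoid genes that were not called. *Pla2g4b* was 0.012 after median ratio scaling, 0.022 after quantile normalization, 0.11 after the length and GC correction with and without the block, and -0.12 to 0.081 without 1 library. *Ptges2* was 0.021 and 0.016 after these scalings, 0.12 after the length and GC correction with and without the block, and -0.17 to 0.044 without 1 library. *Ptges3* was -0.013 after quantile normalization and -0.018 after the length and GC correction with and without the block. *Akr1b8* was -0.085 after that correction with and without the block and -0.030 to 0.047 without 1 library, *slco2a1* was 0.058 after it with and without the block, and *ptgs1* was -0.15 to 0.012 without 1 library. The cause of these shifts was not tested. Filters at a mean of 10 RPKM lower the counts of lists because fewer genes are tested, and under about 1 RPKM few reads stand behind a value.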

Other observations

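Ribosomal protein genes were mostly higher in *ptges*-KO cells. Of 80 tested, 78 had a positive log2 difference, from -0.18 to 0.80 with a median of 0.40, and 14 passed the test as higher (17.5%, against 6.76% of all genes). *Rplp2* was 675, 900.5, and 922 RPKM in *ptgs2*-KO samples and 1161, 1210, and 1226 RPKM in *ptges*-KO samples (0.54 ± 0.11, limma adjusted p = 0.0051). *Rps28* was 322, 466, and 467 RPKM against 602, 621, and 614 RPKM (0.57 ± 0.14, adjusted p = 0.013). These genes together took 6.62%, 9.80%, and 9.56% of the summed RPKM in *ptgs2*-KO samples and 9.10%, 12.2%, and 12.6% in *ptges*-KO samples. Replicate 1 was the lowest in each line, and the lines overlapped. The number of higher genes depended on that sample and on the model, with 74 under the replicate block within the 2 groups and 4 after quantile normalization. It was 60 without *ptges*-KO replicate 1, 6 without *ptgs2*-KO replicate 1, 5 without *ptges*-KO replicate 2, and 4 without *ptges*-KO replicate 3.

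Solute carriers, which move nutrients, ions, and metabolites across membranes, were more often lower, at 28 of 163 tested (17.2%, against 9.84% of all genes). A further 4 were higher (2.45%, against 6.76%), a count that rose to 13 once trends with transcript length and GC content were removed. *Slc2a5*, a fructose transporter, was the exception in size, rising from 0.46, 0.31, and 0.30 RPKM to 6.50, 5.70, and 6.23 RPKM (2.40 ± 0.12, limma adjusted p = 2.6e-08), with 3.20 ± 0.41 RPKM in scramble samples. *Slc36a1*, a lysosomal amino acid transporter, fell from 12.6, 11.1, and 9.87 RPKM to 7.81, 5.84, and 6.40 RPKM (-0.67 ± 0.11, adjusted p = 0.0013), and *slc20a1*, a phosphate transporter, from 88.8, 84.7, and 72.4 RPKM to 64.6, 53.99, and 50.2 RPKM (-0.54 ± 0.10, adjusted p = 0.0023). *Slc22a23*, *slc16a11*, and *slc9a8* fell by 0.83, 0.69, and 0.65. The lower count was 14 without *ptges*-KO replicate 2, 15 without *ptges*-KO replicate 3, 18 and 17 without *ptgs2*-KO replicate 1 and 2, 44 without *ptges*-KO replicate 1, and 54 with the replicate block within the 2 groups. Of the 28 lower genes, 4 lie on the segment of chromosome 3.

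Of 27 antioxidant genes controlled by NRF2, 3 were higher and 3 were lower (11.1% each, against 6.76% and 9.84% of all genes). Among them *cbr3*, a carbonyl reductase, rose from 0.81, 0.68, and 0.75 RPKM to 2.94, 2.93, and 3.03 RPKM (1.18 ± 0.13, limma adjusted p = 4.2e-05), while *aldh3a1*, an aldehyde dehydrogenase, fell from 25.5, 27.4, and 25.9 RPKM to 12.4, 14.3, and 11.4 RPKM (-0.997 ± 0.10, adjusted p = 1.8e-05). Of 25 YAP and TEAD factors and targets, 5 were higher (20%, against 6.76% of all genes) and 4 were lower (16%, against 9.84%). Of each direction 2 passed in every alternative fit that tested them. The higher count of that list was 2 without *ptgs2*-KO replicate 3 or *ptges*-KO replicate 2 and 3 without *ptgs2*-KO replicate 2 or *ptges*-KO replicate 1, and the lower count was 2 without *ptgs2*-KO replicate 2 or *ptges*-KO replicate 2 and 10 with the replicate block within the 2 groups. Of 11 genes of the melanocyte lineage and neural crest tested, 1 was higher (9.09%, near the 6.76% of all genes) and the other 10 did not pass. The higher gene was *s100a1*, at 5.18, 8.60, and 7.98 RPKM against 12.2, 15.7, and 17.0 RPKM (0.97 ± 0.21, adjusted p = 0.0069).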
